A study of Mus musculus with 4 samples.

Results

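The Sox genes encode transcription factors that bind DNA through a high mobility group (HMG) box. The 8 members described here were taken by their symbols in the deposited table, as Sox1, Sox3, Sox4, Sox11, Sox12, Sox13, Sox15 and Sox21. All 8 had a row among the 14382 genes of the table, and all 8 were among the 14376 genes tested. RNA came from mouse embryonic stem cells (ESCs), cultured cells of the early embryo that can form all its tissues. Every sample carried the genotype Arid1a f/f:CreERT2, so the ethanol controls hold the floxed alleles and the Cre recombinase too. The Cre acts once 4-hydroxytamoxifen (4-OHT) is bound, and the floxed gene encodes ARID1A, which belongs to the chromatin remodeller BAF. The groups were ethanol and 1 µM 4-OHT given for 24 hours, with 2 libraries each. RNA was taken 72 hours after treatment, from cells kept on irradiated fibroblast feeders in medium with serum and LIF. Neither the promoter of CreERT2 nor the number of ESC clones is given in the labels. Effects of 4-OHT itself cannot be told apart from those of the deletion, since 4-OHT was given to no cells of another genotype here. Library kits of 2 kinds were used and are not assigned to samples in the labels, so a kit difference cannot be told apart from the treatment either.

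Sox proteins act with partner factors, and the classes of the family are known for different roles. SoxB1 proteins (SOX1, SOX2, SOX3) activate genes of pluripotent cells and of neural progenitors, and SOX2 with the POU factor OCT4 is a core pair of ESCs. SoxB2 proteins such as SOX21 oppose SoxB1 proteins at shared targets. SoxC proteins (SOX4, SOX11, SOX12) are activators that later accompany neuronal commitment. SOX13 belongs to the SoxD class, whose members lack a typical activation domain of their own. SOX15 forms class G, is present in ESCs and can pair with OCT4.

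The coding sequence of the HMG box shows how near these genes are to each other, which bears on whether reads can be told apart. The lines give 60 bases, 5′ to 3′, from a stretch near the start of the box that all 9 genes encode, read from Gencode transcripts of mm10. Capitals mark bases that differ from Sox2.
Sox2: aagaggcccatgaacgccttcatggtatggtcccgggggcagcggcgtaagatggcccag
Sox1: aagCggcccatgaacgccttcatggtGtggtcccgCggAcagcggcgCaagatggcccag
Sox3: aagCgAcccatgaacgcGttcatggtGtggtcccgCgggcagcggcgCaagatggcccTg
Sox21: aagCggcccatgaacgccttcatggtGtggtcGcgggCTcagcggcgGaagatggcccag
Sox15: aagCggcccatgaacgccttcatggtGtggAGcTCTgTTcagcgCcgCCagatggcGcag
Sox4: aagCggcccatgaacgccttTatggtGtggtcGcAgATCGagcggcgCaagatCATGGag
Sox11: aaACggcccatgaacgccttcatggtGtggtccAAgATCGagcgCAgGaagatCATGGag
Sox12: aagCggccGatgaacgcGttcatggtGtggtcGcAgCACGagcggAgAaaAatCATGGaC
Sox13: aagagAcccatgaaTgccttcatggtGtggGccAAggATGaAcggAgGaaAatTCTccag
Over 207 bases from the same starting point, Sox1 matched Sox2 at 90.3% of positions and Sox3 and Sox21 at 87.9%. Sox15 matched at 74.4%, the SoxC genes at 67.6% to 69.1% and Sox13 at 64.3%. The longest run of identical bases between whole transcripts of any pair of these 9 genes was 48 bases, between Sox4 and Sox11. Sox1 and Sox3 shared a run of 45 bases and Sox1 and Sox2 one of 38 bases. Read length is not given in the sources used here, so how many reads fell wholly inside such runs is not known.

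With 4-OHT, Sox1, Sox12 and Sox15 rose, by 1.73-fold, 1.27-fold and 1.49-fold in mean CPM (reads scaled to a common library size). In limma on log2(CPM + 1), 3 of 8 members rose, 0 fell and 5 did not pass, at an adjusted p threshold of 0.05 over all genes. The background share was 9.46% of all genes called, 5.24% that rose and 4.22% that fell. With genes under a mean of 1 CPM left out, limma called 4 members higher and 1 lower, against 7.85% and 7.31% of genes. Without either 4-OHT library limma called no member and no gene (2505 and 2514 genes at an unadjusted p under 0.05), while edgeR called Sox1, Sox12 and Sox15 without any 1 of the 4 libraries. At an unadjusted p under 0.05, 5 members were higher and 2 lower, beside 12.5% and 11.4% of all genes. By the quasi-likelihood test of edgeR, run on recovered reads, the calls were 4 members higher and 1 lower, with Sox3 added above and Sox4 below, where 8.12% and 7.63% of genes were called in these directions. In all 8 members the 2 ethanol libraries and the 2 4-OHT libraries did not overlap, 5 being higher and 3 lower with 4-OHT. Such separation was common, since 26.4% of all genes were higher and 25.7% lower without overlap. The median log2 fold change of the 8 members was 0.37, beside -0.0016 over all genes tested.

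**Figure D1:**
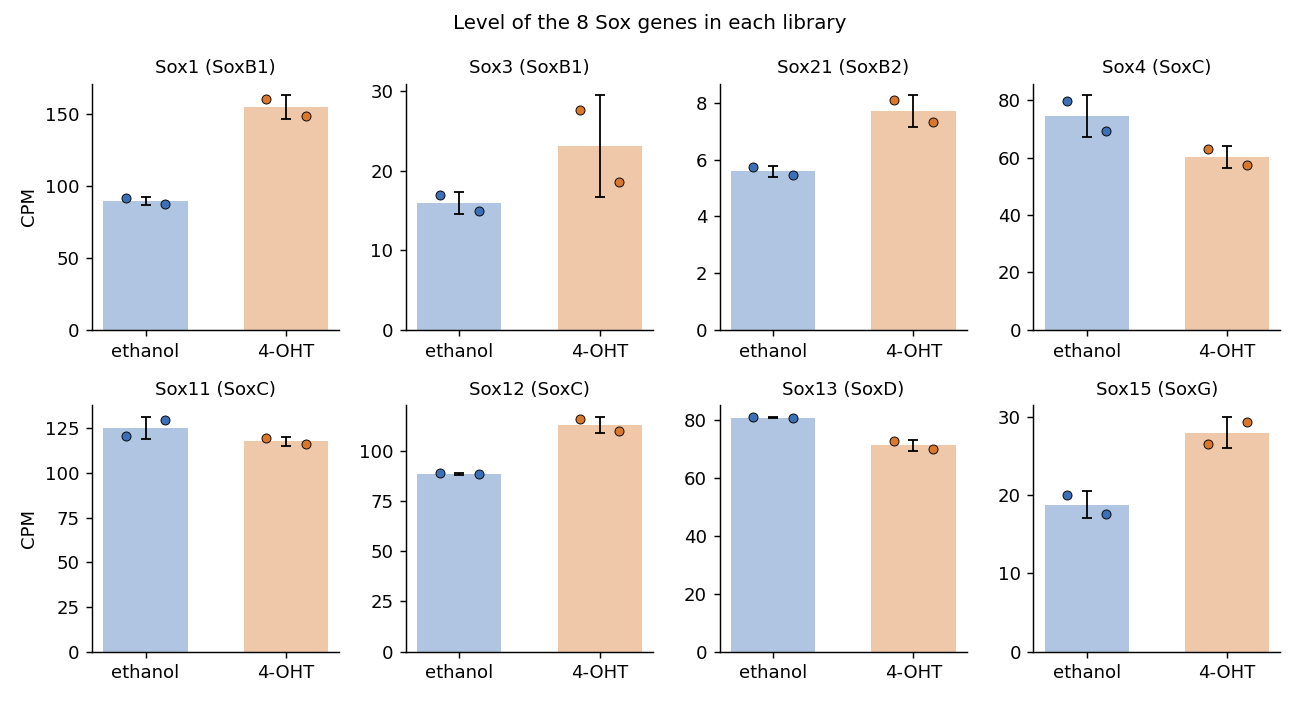
CPM (vertical axis, from 0) of the 8 Sox genes in ethanol (blue) and with 4-OHT (orange), with points for the 2 recovered libraries of a group, bars for the mean and error bars for the SD. Sox1 stood at 89.4 and 154 CPM and Sox15 at 18.8 and 28.0 CPM, while the Sox3 libraries with 4-OHT lay far apart, at 27.6 and 18.6 CPM.

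The targeted gene checks the labels. Arid1a stood at 517 and 502 CPM in the ethanol libraries and at 241 and 213 CPM with 4-OHT (limma adjusted p = 7.27e-06). The libraries are called A and B because the deposited columns carry no replicate numbers, and they held 6188378 to 7012664 recovered reads. A read was worth 0.142 to 0.159 CPM, so 0 reads in a library would allow up to 0.426 to 0.477 CPM (3 reads, for counting error only, since PCR copies of a molecule were not told apart). Whether the 2 samples of a group came from separate cultures is not stated in the labels. The p-values therefore rest on a spread between samples that may be technical. Pou5f1, the ESC marker that encodes OCT4, had 1442 ± 79.2 CPM in ethanol and 1439 ± 107 CPM with 4-OHT (SD, n = 2). Of all 6 ESC markers listed, Nanog and Tdgf1 rose, Esrrb fell from 203 to 169 CPM (limma adjusted p = 0.0193), and Pou5f1, Zfp42 and Dppa5a did not pass.

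Sox1, a SoxB1 gene used as an early mark of neural plate cells, lies on mm10 chromosome 8 from 12395295 to 12400126 (plus strand, ENSMUSG00000096014, Gencode coordinates as for all genes here). Its level was 91.3 and 87.5 CPM in the ethanol libraries and 160 and 149 CPM with 4-OHT. Both treated libraries lay far above both controls, and the distance between groups was many times the distance within them. The means were 89.4 ± 2.67 and 154 ± 8.28 CPM (SD, n = 2), a log2 fold change of 0.78 (SE 0.066, limma adjusted p = 0.00011). This was the largest change among the 8 members. The counts behind it were 589 and 561 reads in ethanol and 1128 and 935 reads with 4-OHT. The gene lies within the span of Sox1ot, a noncoding gene on the same strand, and their reads cannot be told apart where exons overlap. The miRNA gene Gm25239 also lies within it, on the same strand. Over the 4 libraries, the genes nearest to Sox1 by Euclidean distance of log2(CPM + 1) were Wnt8a (distance 0.17), Shroom3 (0.27) and Npr1 (0.30). Wnt8a, which encodes a WNT ligand, had means of 93.6 ± 0.207 CPM in ethanol and 152 ± 6.04 CPM after 4-OHT (SD, n = 2), a likeness for which it was chosen.

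Sox3, the X-linked SoxB1 gene of neural progenitors (chromosome X, 60891366 to 60893430, minus strand), was less certain. It stood at 16.9 and 15.0 CPM in ethanol and at 27.6 and 18.6 CPM with 4-OHT. Library A with 4-OHT was well above the rest, and library B only slightly above the controls. The log2 fold change was 0.48 (SE 0.17, 95% interval 0.098 to 0.87), which did not pass in limma (adjusted p = 0.118). The edgeR test called it higher (edgeR adjusted p = 0.00439), but without 4-OHT library A that call was lost (edgeR adjusted p = 0.495, log2 fold change 0.22), as it was without ethanol library B (edgeR adjusted p = 0.0614). With genes under a mean of 1 CPM left out, limma also called it higher (adjusted p = 0.00911).

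Sox2, the SoxB1 gene left out of the members, went the other way. Its libraries were at 349 and 327 CPM in ethanol and at 292 and 289 CPM with 4-OHT, a fall just past the threshold (log2 fold change -0.22, limma adjusted p = 0.0405). In each library the CPM of Sox1 was set against that of Sox2. The ratio was 0.261 and 0.268 in ethanol and 0.549 and 0.514 with 4-OHT, so both 4-OHT libraries lay well above both ethanol libraries. Of all SoxB1 reads, Sox1 made up 20.0% (95% interval 18.5% to 21.4%, exact Clopper-Pearson, counting error only) and 20.4% (18.9% to 22.0%) in the ethanol libraries. With 4-OHT its share was 33.4% (31.8% to 35.0%) and 32.6% (30.8% to 34.3%). The Sox2 share went from 76.3% and 76.1% to 60.9% and 63.4%. These shares are not independent, since a larger Sox1 part of the sum alone lowers the Sox2 share. The summed level of the 3 SoxB1 genes differed little, at 457 and 429 CPM in ethanol and 480 and 456 CPM with 4-OHT, and these libraries overlapped. Divided by gene length, Sox1 made up 9.72% ± 0.170 of SoxB1 transcript level in ethanol and 17.3% ± 0.384 with 4-OHT (SD, n = 2). The summed per-length level was 190 ± 9.01 CPM per kb of exon in ethanol and 184 ± 5.80 with 4-OHT (SD, n = 2). These libraries overlapped too, and the 4-OHT mean was the lower here but the higher for summed CPM.

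Sox21, the SoxB2 gene (chromosome 14, 118233232 to 118237030, minus strand), was the lowest member. Its libraries were at 5.73 and 5.46 CPM in ethanol and 8.10 and 7.31 CPM with 4-OHT, from 37 and 35 reads against 57 and 46. The treated pair was above the control pair, yet the log2 fold change of 0.40 (SE 0.17, 95% interval 0.011 to 0.79) did not pass (limma adjusted p = 0.197, edgeR adjusted p = 0.160). An antisense noncoding gene, Gm4675, overlaps its 5′ end, with a mean of 1.79 CPM in ethanol and 1.65 CPM after 4-OHT. Use of strand in counting is not given in the sources used here, so reads of the pair may be mixed.

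**Figure D2:**
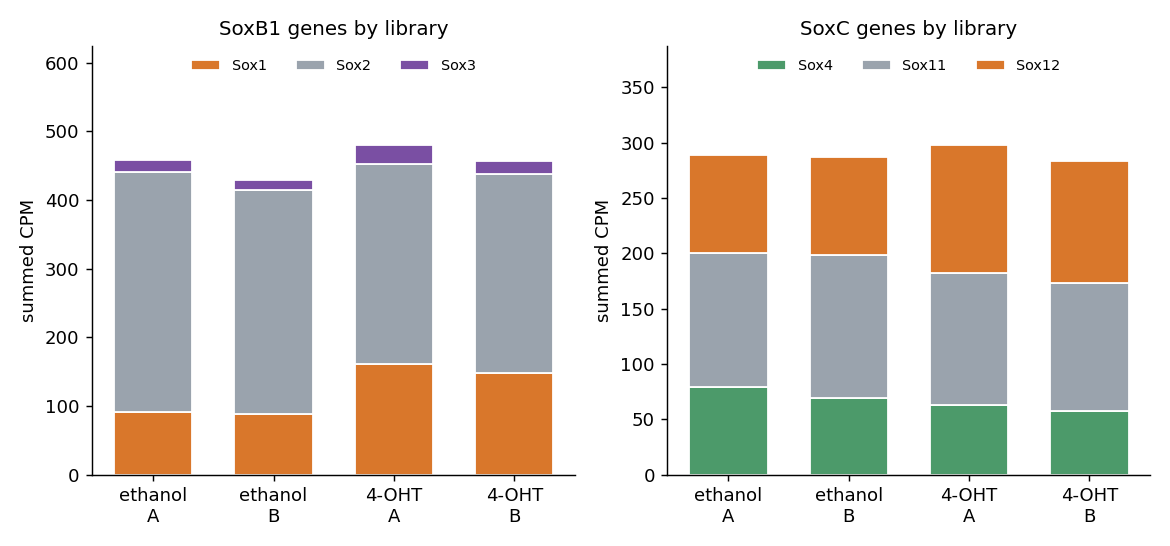
Summed CPM (vertical axis, from 0) of the 3 SoxB1 genes (left) and the 3 SoxC genes (right) in each of the 4 libraries, stacked by gene. The totals stay at 429 to 480 CPM and at 284 to 298 CPM, while the Sox1 and Sox12 parts are larger in both 4-OHT libraries.

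The 3 SoxC genes did not move as a group. Sox12, which encodes the weakest activator of the class (chromosome 2, 152393611 to 152398063, minus strand), rose. It stood at 89.0 and 88.3 CPM in ethanol and at 116 and 110 CPM with 4-OHT. The ethanol libraries were nearly equal and both 4-OHT libraries were clearly above them, with a log2 fold change of 0.34 (SE 0.065, limma adjusted p = 0.00808).

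Sox4, a broadly expressed SoxC gene (chromosome 13, 28948919 to 28953713, minus strand), was at 79.5 and 69.3 CPM in ethanol and at 63.0 and 57.5 CPM with 4-OHT. Both treated libraries were below both controls, but the control pair was itself spread over 10 CPM. The antisense noncoding gene Gm26735 overlaps the 3′ part of Sox4, so reads of the pair may be mixed if strand was not used. The log2 fold change of -0.30 (SE 0.088, 95% interval -0.49 to -0.10) did not pass in limma (adjusted p = 0.0632). The edgeR test called it lower (edgeR adjusted p = 0.00912), and that call was lost without ethanol library A (edgeR adjusted p = 0.316) and without 4-OHT library B (edgeR adjusted p = 0.0976). Limma called it lower without ethanol library B (adjusted p = 0.0227) and with genes under a mean of 1 CPM left out (adjusted p = 0.00910).

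Sox11, the SoxC gene most tied to immature neurons (chromosome 12, 27334264 to 27342574, minus strand), had the highest CPM of the 8 members in ethanol. Its libraries were at 121 and 129 CPM in ethanol and 119 and 116 CPM with 4-OHT. The distance between the groups was smaller than that between the ethanol libraries. Its log2 fold change was -0.09 (SE 0.064, 95% interval -0.23 to 0.057, limma adjusted p = 0.467), so a change in either direction of the size seen for Sox1 lies outside the interval. The summed SoxC level was 289 and 287 CPM in ethanol and 298 and 284 CPM with 4-OHT. Within that sum Sox12 made up 30.8% of reads in each ethanol library and 38.8% in each 4-OHT library. The Sox4 share was 27.5% and 24.1% in ethanol and 21.1% and 20.3% with 4-OHT, and the Sox11 share was 41.7% and 45.1% against 40.1% and 40.9%. The Sox12 share was higher and the Sox4 and Sox11 shares lower in both 4-OHT libraries, with no overlap. As parts of the same sum, these shares are not independent, since a larger Sox12 part alone lowers the others.

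Sox15, the class G gene linked to pluripotent cells (chromosome 11, 69655314 to 69656727, plus strand, ENSMUSG00000041287), rose together with Sox1 and not with Sox2. Its libraries were at 20.0 and 17.6 CPM in ethanol and 26.6 and 29.4 CPM with 4-OHT, from 129 and 113 reads against 187 and 185. Both treated libraries were above both controls by more than the spread of either pair. The means were 18.8 ± 1.67 and 28.0 ± 2.00 CPM (SD, n = 2), with a log2 fold change of 0.55 (SE 0.12, 95% interval 0.28 to 0.82, limma adjusted p = 0.0175). The interval overlapped that of Sox1 (0.63 to 0.93), and the difference between both changes was not tested. The Sox15 call was lost in DESeq2 (adjusted p = 0.0948) and in limma without ethanol library B (adjusted p = 0.0683). The 3′ end of the gene, from 69656697 on, overlaps Mpdu1 on the other strand. Mpdu1 had a mean of 95.2 CPM in ethanol and 98.8 CPM after 4-OHT and did not pass (limma adjusted p = 0.707).

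Sox13, the SoxD gene (chromosome 1, 133382303 to 133424377, minus strand), was slightly lower. Its libraries were at 81.1 and 80.8 CPM in ethanol and 72.8 and 70.1 CPM with 4-OHT. The pairs were tight and did not overlap, but the log2 fold change of -0.18 (SE 0.069, 95% interval -0.33 to -0.025) did not pass (limma adjusted p = 0.146, edgeR adjusted p = 0.136).

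**Figure D3:**
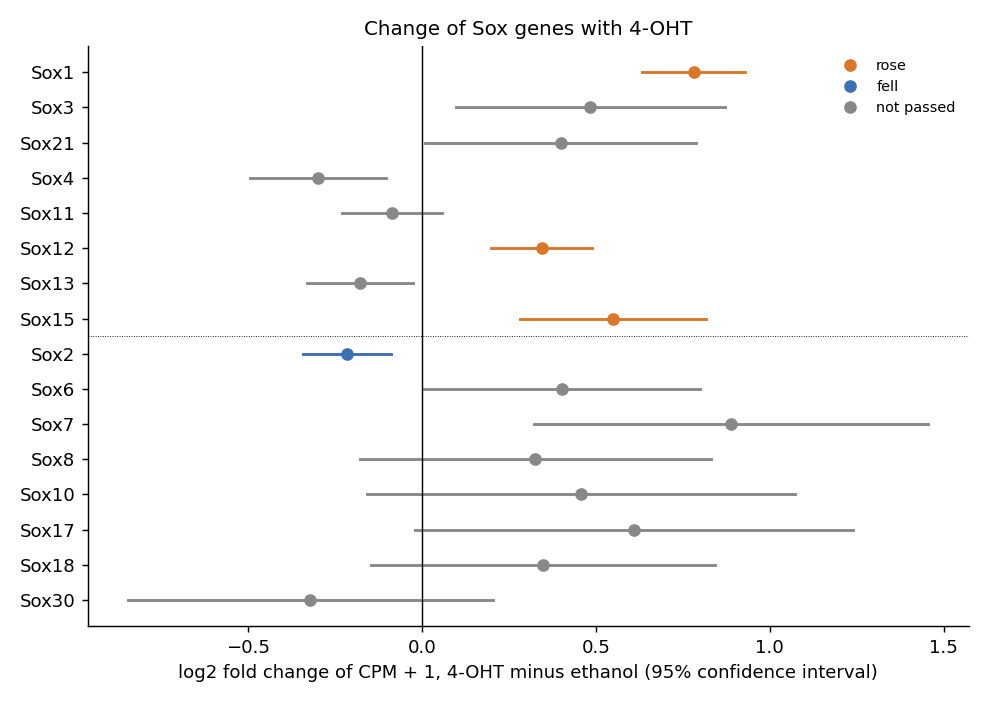
Change in log2(CPM + 1) from ethanol to 4-OHT (horizontal axis) with its 95% interval for the 8 members (above the dotted line) and 8 other Sox genes (below it), coloured by the limma result. Sox1 lies farthest from 0 among the members at 0.78, and Sox2 lies below 0 at -0.22.

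CPM compares a gene with itself, and levels of different genes were therefore compared as CPM per kb of the union of a gene's exons. On that scale Sox15, whose exons span only 861 bases, was the highest member in ethanol at 21.8 ± 1.94 CPM per kb (SD, n = 2). It was followed by Sox12 at 19.9 ± 0.107, Sox13 at 18.8 ± 0.0419 and Sox1 at 18.5 ± 0.553 CPM per kb. The libraries of Sox13 and Sox1 overlapped, and Sox15 exceeded Sox12 by a distance about equal to its own SD. Sox4 at 15.5 ± 1.51 and Sox11 at 15.1 ± 0.743 CPM per kb also overlapped. Sox3 was at 7.72 ± 0.657 and Sox21 at 1.47 ± 0.0512 CPM per kb. For scale, Sox2 stood at 164 ± 7.80 CPM per kb in the same libraries.

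With 4-OHT, Sox15 and Sox1 shared the top of the per-length order at 32.5 ± 2.32 and 32.0 ± 1.71 CPM per kb, with overlapping libraries. Sox12 followed at 25.3 ± 0.907, Sox13 at 16.6 ± 0.439, Sox11 at 14.2 ± 0.286, Sox4 at 12.6 ± 0.801 and Sox3 at 11.2 ± 3.07 CPM per kb. Of these neighbours, Sox4 and Sox3 overlapped. Sox21 stayed last at 2.03 ± 0.147 CPM per kb. Sox13 has several transcripts, and by its longest one its per-length level was 21.9 in ethanol and 19.3 with 4-OHT, which puts it beside Sox15 in ethanol.

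**Figure D4:**
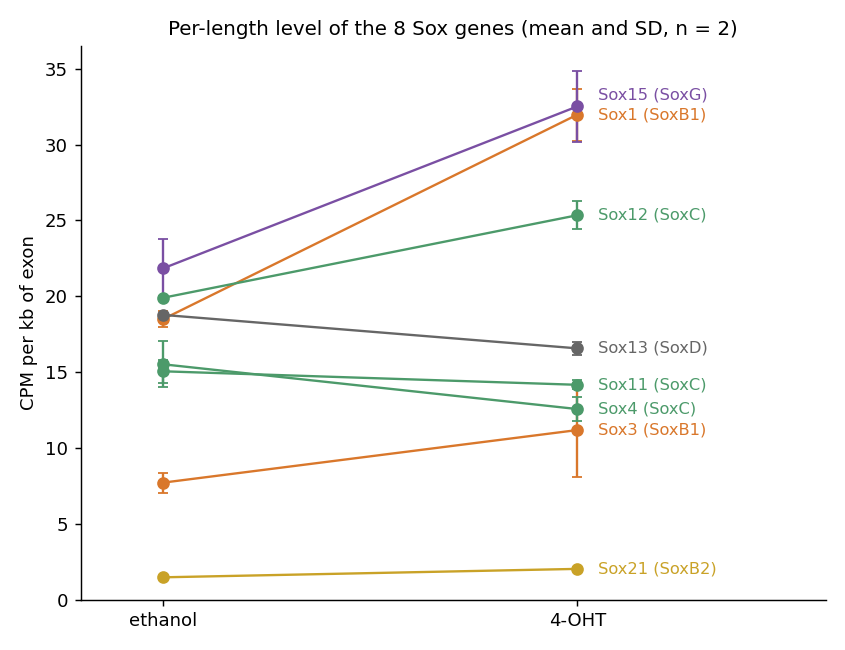
Per-length level (CPM per kb of exon, vertical axis, from 0) of the 8 members in ethanol and with 4-OHT, as mean and SD of 2 libraries, coloured by Sox class. Sox1 moves from the middle of the order at 18.5 to the top beside Sox15 at 32.0 CPM per kb.

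The promoter table of RefSeq (GRCm38.p6) held 7 of the 8 members, Sox3 being the exception. Its window of 300 bases lies mostly upstream of the start that RefSeq gives, and was searched on both strands for 3 short motifs. RefSeq starts differ from the Gencode gene coordinates printed above, and 5 of the 7 windows hold the Gencode start. Those of Sox11 and Sox15 lie wholly upstream of it. These were the POU octamer ATGCAAAT and the SOX cores ACAATG and ACAAAG. The octamer was found in the windows of Sox1 and Sox12 and in none of the other 5, among them Sox15, which also rose. Whether the octamer bears on the changes was not tested. Of 32851 promoter windows in the table, 1.74% held it. It is shown in capitals within 30 bases, 5′ to 3′ along each gene.
Sox1, chr8:12395526-12395555, plus strand, octamer starting 18 bases after the RefSeq start (12395519) and 242 bases after the Gencode start: gccagcgcgccATGCAAATcaccgccgccg
Sox12, chr2:152398223-152398252, minus strand, octamer starting at position -195 from the RefSeq start (152398046) and -178 from the Gencode start: gcgattgggagATGCAAATgctgagttctc
ACAATG occurred in 0 of 7 member windows and in 12.6% of all windows, and ACAAAG in the Sox15 window alone and in 18.7% of all windows. These are matches of letters and not binding sites.

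Other Sox genes were mostly too low to judge. Of 12 on a list of further family members, 8 were measured. Limma called Sox2 lower, 0 higher and 7 not past the threshold, where 5.24% of all genes rose and 4.22% fell. At an unadjusted p under 0.05, 2 were higher and 1 lower, beside 12.5% and 11.4% of all genes. Sox6, a SoxD gene, was at 6.68 ± 0.629 and 9.18 ± 1.29 CPM (adjusted p = 0.204). Sox7, a SoxF gene of endoderm and blood vessels, was at 0.934 ± 0.444 and 2.58 ± 0.841 CPM, from 4 and 8 reads in ethanol and 14 and 20 reads with 4-OHT. It missed the limma threshold (adjusted p = 0.0571), while edgeR called it higher (edgeR adjusted p = 0.0201). Sox8, Sox10, Sox17, Sox18 and Sox30 had group means between 0.466 and 2.65 CPM, and none passed in limma. The list's median log2 fold change was 0.38. Sox2ot, a noncoding gene that spans Sox2 on the same strand, rose from 0.700 to 1.96 CPM (limma adjusted p = 0.0418), from 4 and 5 reads in ethanol and 13 in each 4-OHT library. That call was lost in DESeq2 (adjusted p = 0.548), and reads of Sox2ot and Sox2 cannot be told apart where exons overlap.

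Factors that pair with SOX proteins were counted beside the members, again against 5.24% of genes that rose. Of 9 listed, 6 were measured, 3 rose, 0 fell and 3 did not pass, with a median log2 fold change of 0.22. Pou3f1, a POU factor of the epiblast and neural progenitors, stood at 52.1 and 44.5 CPM in ethanol and 104 and 98.4 CPM with 4-OHT (log2 fold change 1.06, limma adjusted p = 9.85e-05). Pax6, which pairs with SOX2 in eye and brain, went from 8.16 ± 0.513 to 12.8 ± 0.581 CPM (limma adjusted p = 0.0400), a call that was lost in DESeq2 (adjusted p = 0.299). Nanog rose from 314 to 402 CPM, and Pou5f1, Pou2f1 and Sall4 did not pass. No fall was seen in this list in limma or edgeR, also at an unadjusted p under 0.05 (0 genes).

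Genes with a known SOX-OCT element, a joint site of SOX2 and OCT4, split in both directions. All 8 listed were measured, 2 rose, 3 fell and 3 did not pass, with a median log2 fold change of -0.0048. Over all genes 5.24% rose and 4.22% fell. Fgf4, an FGF ligand gene, went from 46.3 ± 1.75 to 76.2 ± 0.0358 CPM (limma adjusted p = 0.000396). Lefty1, a Nodal inhibitor gene, fell from 658 ± 65.3 to 467 ± 31.3 CPM, and Fbxo15 fell from 82.1 ± 2.92 to 67.6 ± 0.138 CPM (limma adjusted p = 0.0347). The Fbxo15 call was lost in DESeq2 (adjusted p = 0.230). Utf1, Zscan10 and Pou5f1 did not pass, with log2 fold changes of -0.00011, -0.0056 and -0.0040. Sox2, Nanog and Pou5f1 are also on the lists above.

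**Figure D5:**
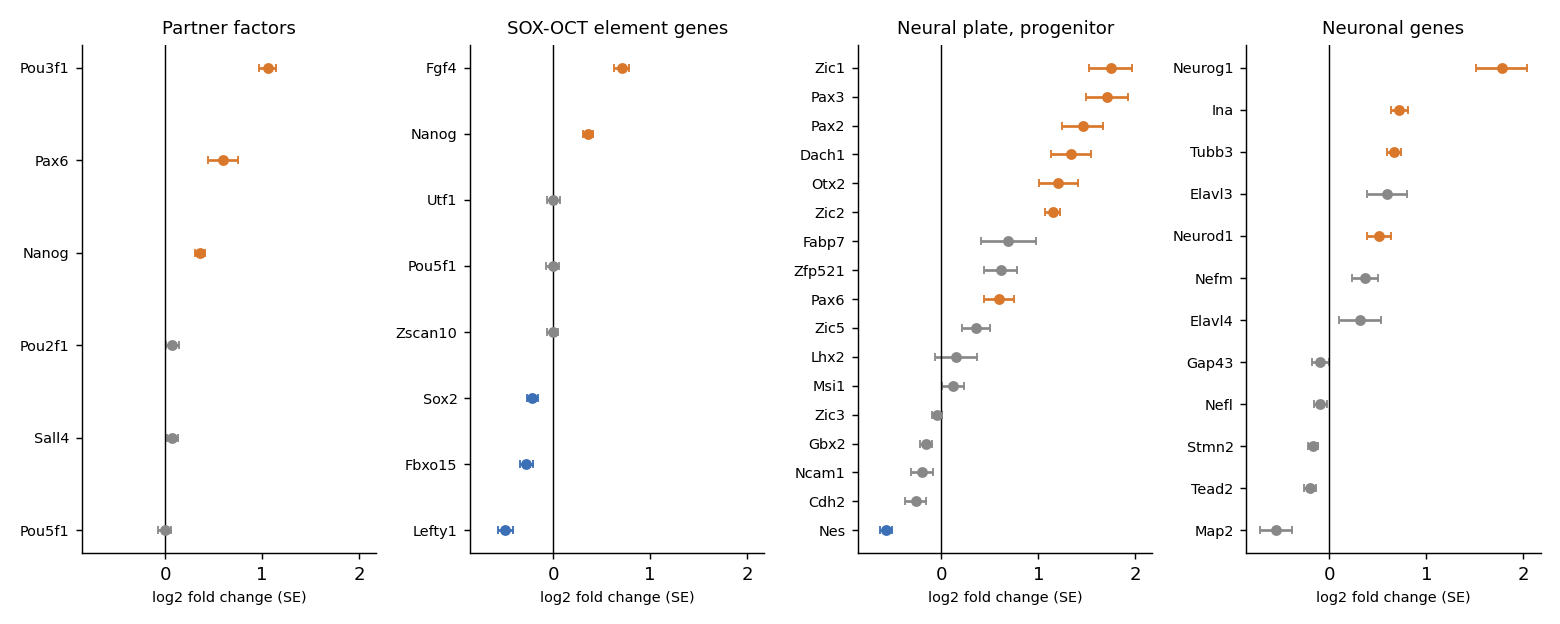
Change in log2(CPM + 1) from ethanol to 4-OHT (horizontal axis) with its SE for the measured genes of 4 lists; orange genes rose, blue genes fell and grey genes did not pass in limma. Rises outnumber falls among neural plate genes (7 against 1) and neuronal genes (4 against 0), while genes with a SOX-OCT element split 2 against 3. Over all genes 5.24% rose and 4.22% fell. In lists not drawn, 2 neural crest markers rose and 0 fell, and 1 marker of endoderm and endothelium rose and 0 fell.

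Genes of the neural plate and of neural progenitors, where SoxB1 factors are active, were counted next. Of 22 listed, 17 had a row. Of these 7 rose and only Nes fell in limma, while 9 missed the threshold, with a median log2 fold change of 0.59. Over all genes 5.24% rose and 4.22% fell. At an unadjusted p under 0.05, 10 of the 17 were higher and 3 lower, beside 12.5% and 11.4% of all genes. Without overlap of groups 11 were higher and 5 lower, beside 26.4% and 25.7% of all genes. Zic1 was at 0.775 and 1.25 CPM in ethanol and 6.4 and 5.1 CPM with 4-OHT. Pax3 and Pax2, both near 0 in ethanol, reached 3.54 and 2.18 CPM. The Pax2 call was lost in DESeq2 (adjusted p = 0.0560). Nes, the intermediate filament gene often used beside Sox1 as a neural progenitor mark, fell from 219 ± 9.91 to 147 ± 6.31 CPM (limma adjusted p = 0.000441). Pax6 is on this list too.

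Neuronal genes, some of them known SoxC targets, were counted in the same way. Of 14 listed, 12 were measured, 4 rose, 0 fell and 8 did not pass, with a median log2 fold change of 0.34. In the same fit 5.24% of all genes rose and 4.22% fell. At an unadjusted p under 0.05, 6 were higher and 3 lower (12.5% and 11.4% of all genes), and edgeR called 5 higher and 2 lower (8.12% and 7.63%). Without overlap of groups 7 were higher and 5 lower, beside 26.4% and 25.7% of all genes. Tubb3, a neuronal tubulin gene and SoxC target, rose from 46.8 ± 1.77 to 74.9 ± 1.77 CPM (limma adjusted p = 0.000544). Tead2, another known SoxC target, had 221 ± 5.92 CPM in ethanol and 193 ± 15.0 CPM after 4-OHT, which missed the limma threshold (adjusted p = 0.0924), while edgeR called it lower (edgeR adjusted p = 0.0250). Map2, the other gene that edgeR called lower (edgeR adjusted p = 0.0158), went from 11.9 ± 0.496 to 7.85 ± 1.26 CPM. Its log2 fold change of -0.55 missed the limma threshold (adjusted p = 0.0725). Neurog1, a proneural gene, went from 1 and 4 reads in the ethanol libraries to 33 and 18 reads with 4-OHT, and Ina, a neurofilament gene, from 80.6 to 134 CPM.

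Fibroblasts also express SoxC genes, and feeder cells can be part of each library. Of 10 fibroblast markers, 5 were measured and none was at 0. Their summed level was 79.5 and 79.9 CPM in ethanol and 112 and 103 CPM with 4-OHT. Col1a2 and Thy1 rose, 0 fell, and Col1a1, Col3a1 and Pdgfrb did not pass (2 higher and 0 lower in edgeR). Markers of neural progenitors summed to 224 and 239 CPM in ethanol and 170 and 160 CPM with 4-OHT, mostly Nes, which fell. Pax6 rose, Fabp7 and Lhx2 did not pass, and the median log2 fold change of the 4 measured was 0.37. Neural crest markers summed to 26.2 and 24.5 against 35.2 and 39.6 CPM. Tfap2a and Pax3 rose, 0 fell, and Foxd3, Sox10 and Snai2 did not pass. Of 6 markers of definitive endoderm and endothelium 4 were measured. Kdr rose, 0 fell and 3 did not pass (median log2 fold change 0.44). Over all genes 5.24% rose and 4.22% fell. The part of such cells in the Sox levels was not tested, and in bulk RNA more cells of a type and more RNA per cell cannot be told apart.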

How the data were processed

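RNA of 4 samples, 2 per group, was sequenced. HISAT2, Trimmomatic, FastQC, edgeR and the mm10 build are named in the submitters' processing notes. Which program counted reads, and whether by strand, is not given in the sources used here. In the deposited table stood the authors' mean CPM of each group. Each mean averages 2 whole read numbers, each times what a read is worth in its library, and 100% of values in both columns came out whole within the printed digits; 99.7% of ethanol values and 99.95% of 4-OHT values allowed only 1 pair of numbers. Of the rest, 37 ethanol and 7 4-OHT values were settled by taking the only pair whose libraries lay within 2-fold of each other. For those values this rule limits the spread within the group. Another 6 genes stayed unsettled and were left out. The authors' deposited log2 fold changes and p-values were not used, since both columns are out of register with the genes (Spearman rho 0.018 against the log2 ratio of mean CPM in the same row, across genes).

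Recovered CPM of each library were tested with limma-trend 3.58.1 (R 4.3.3) on log2(CPM + 1), two-sided, with Benjamini-Hochberg adjustment over 14376 genes, no filter on low values and no covariate. Counting tests on recovered reads used edgeR 4.0.16 (quasi-likelihood, the authors' library sizes) and DESeq2 1.42.0. The steps were tested on simulated data. The design had foreseen CPM of each library or group means; the recovered libraries were used. Members and lists were chosen with earlier results of these data known. Named genes were all 8 members, Sox2 and Arid1a, up to 3 called genes of largest change per list, and the 3 genes nearest to the called member of largest change, with genes that overlap a member. Tead2, Map2 and genes that make up small counts were named after their values were seen. Of the neuronal list 1 gene is not reported here and was left out of its counts. Alternatives were a pseudocount of 0.1, DESeq2 size factors, a mean CPM of at least 1, thresholds of 0.01 and 0.1, the longest transcript as gene length, and leaving out each library.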

Additional observations from a re-analysis of the deposited data

How the results depend on the processing

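Under 13 alternative fits, the log2 fold changes of the 8 members, Sox2 and Arid1a kept their direction in every fit that gave a value. The number of members called was 3 of 8 in limma, 5 in edgeR, 2 in DESeq2, 2 at a threshold of 0.01, 4 at 0.1 and 5 with genes under a mean of 1 CPM left out; all genes called were 1360 in limma, 2042 in edgeR, 704 in DESeq2, 638 at a threshold of 0.01 and 2062 at 0.1. Leaving out each library in turn gave 0 to 3 members and 0 to 1031 genes in limma. The 0 came without either 4-OHT library (2505 and 2514 genes, and 5 and 4 members, at an unadjusted p under 0.05), where the lone sample is assumed to vary like the ethanol pair; the cause was not tested. With edgeR, leave-one-out fits chosen after seeing the data called 4 members each time and 1302 to 1767 genes. The Sox2 call was lost in DESeq2 (adjusted p = 0.0575) and with a pseudocount of 0.1 (adjusted p = 0.0545). Without ethanol library A it was lost in both limma and edgeR (log2 fold change -0.17 in each). Without ethanol library B it was lost in limma (log2 fold change -0.26) but not in edgeR. Among genes with a SOX-OCT element 5 were called in limma and 3 in DESeq2 and at a threshold of 0.01. Of neuronal genes 4 were called in limma, and 7 in edgeR, at a threshold of 0.1 and with genes under a mean of 1 CPM left out. Of neural plate genes 8 were called in limma, 9 in edgeR and 6 in DESeq2. Without either 4-OHT library limma called 0 genes in each list. Of partner factors 3 were called in limma, and 2 in DESeq2, with a pseudocount of 0.1, at a threshold of 0.01 and without either ethanol library. Of other Sox genes, 1 was called in limma, 2 in edgeR and 0 in DESeq2. No paired analysis was possible because the columns carry no replicate numbers. With 35 to 57 reads per library, depth limits Sox21 most among the members.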
